A study of Mus musculus with 18 samples.

Results

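B1 elements, filed by repeat annotation under the family name Alu, were examined locus by locus in total RNA of mouse mesenchymal progenitor cells with and without ATRX. The members were chosen by name alone: every row of the rRNA-depleted count table that is labelled locus, subfamily, family and class with the family exactly Alu. There were 574557 such loci among 3725827 transposable element (TE) loci, 15.4% of them, beside 24100 genes in the same table. The rule uses names and no measured value. The libraries are of bulk RNA, in which fewer cells with an RNA and less of it per cell cannot be told apart.

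B1 elements are short interspersed elements (SINEs) of rodents that arose from 7SL RNA, the RNA of the signal recognition particle, as the primate Alu elements did. They carry an internal promoter for RNA polymerase III, code for no protein and are copied with the enzymes of LINE-1 elements. Many copies sit within or beside genes, so their sequence is also read as a stretch of longer RNAs made by RNA polymerase II. ATRX is a chromatin remodeller that deposits histone H3.3 together with DAXX at repeats and other heterochromatin.

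The cells were C3H/10T1/2, an established mouse line used as a model of mesenchymal progenitors, grown undifferentiated. The 3 lines compared were Atrx WT, which carries Cas9 with an empty vector, and 2 Atrx knockout (KO) lines made with Cas9 and the guides sg5 or sg6. Each KO line was 1 clone, so a difference between a clone and WT cannot be told apart from a difference between any cells grown from 1 founder. Each line gave 3 rRNA-depleted libraries, n = 3 below counts libraries of 1 line, and the p-values measure only the spread between those libraries. The 9 polyA-selected libraries among the 18 samples of the series were not used here. The place of each locus in the genome was not analysed here, so reads from an element's own promoter and reads from a longer RNA that runs through it cannot be told apart.

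The knockout was checked first. Atrx stood at 213, 185 and 222 CPM (counts relative to library size, scaled by the trimmed mean of M-values, TMM) in the WT libraries, at 107, 58.4 and 71.0 in sg5 and at 96.6, 72.7 and 80.3 in sg6. All 6 KO libraries lay below all 3 WT libraries, with log2 fold changes of −1.39 in sg5 (adjusted p = 0.00138) and −1.31 in sg6 (adjusted p = 0.00227) by edgeR's quasi-likelihood test with Benjamini-Hochberg adjustment over all 56086 features tested, the test used for every adjusted p of a gene or locus below. A feature is called where that adjusted p is below 0.05.

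Markers of the labelled cell type were present, though Thy1 was low in WT and sg5. All 8 mesenchymal markers were measured and Vim, which encodes the filament protein vimentin, reached 2494, 4341 and 4252 CPM in WT, sg5 and sg6. Of the epithelial, endothelial and blood markers, 1 of 4, 0 of 3 and 1 of 3 had enough counts to be tested. The epithelial gene, Cdh1, which encodes E-cadherin, was called lower in both clones (log2 fold changes −3.82 and −3.18) from a WT level of 1.51, 2.94 and 2.09 CPM. Thy1, a surface marker and 1 of the 8 mesenchymal markers, separated the clones. It stood at 0.252, 0.212 and 0.428 CPM in WT, 0.0370, 0.214 and 0.0371 in sg5, and 32.8, 24.4 and 23.7 in sg6. The part of either difference in the B1 values was not tested. Libraries held 20135336 to 33187136 counts. WT replicate 3 stood apart, with 15.5% of its counts on TE loci against 11.8% and 12.3% in the other WT libraries, so sums, shares and counts of calls are also given without it.

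Most B1 copies left no trace at this depth. A count was seen at 206900 of the 574557 loci (36.0%), with a median of 6 counts over the 9 libraries, and 38475 of them had 1 count in all. The Alu family took 1.36%, 1.58% and 1.90% of all counts in the WT libraries, 1.39%, 1.23% and 1.38% in sg5, and 1.36%, 1.37% and 1.38% in sg6. The ranges overlapped, and the widest 95% exact binomial interval of a share spanned 0.00962 percentage points, so counting error was far smaller than the spread of the WT libraries. Such intervals cover counting error only. The mean shares were 1.62% ± 0.270 in WT, 1.34% ± 0.0936 in sg5 and 1.37% ± 0.00899 in sg6 (SD, n = 3), with differences from WT of −0.28 and −0.25 percentage points (exact two-sided permutation test, p = 0.3 for each, adjusted p = 0.562 over 15 tests of shares and ratios). With 3 against 3 libraries this test cannot go below 0.1, so no p of a share or ratio could pass 0.05. Without WT replicate 3 the differences were −0.14 and −0.11 percentage points.

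**Figure D1:**
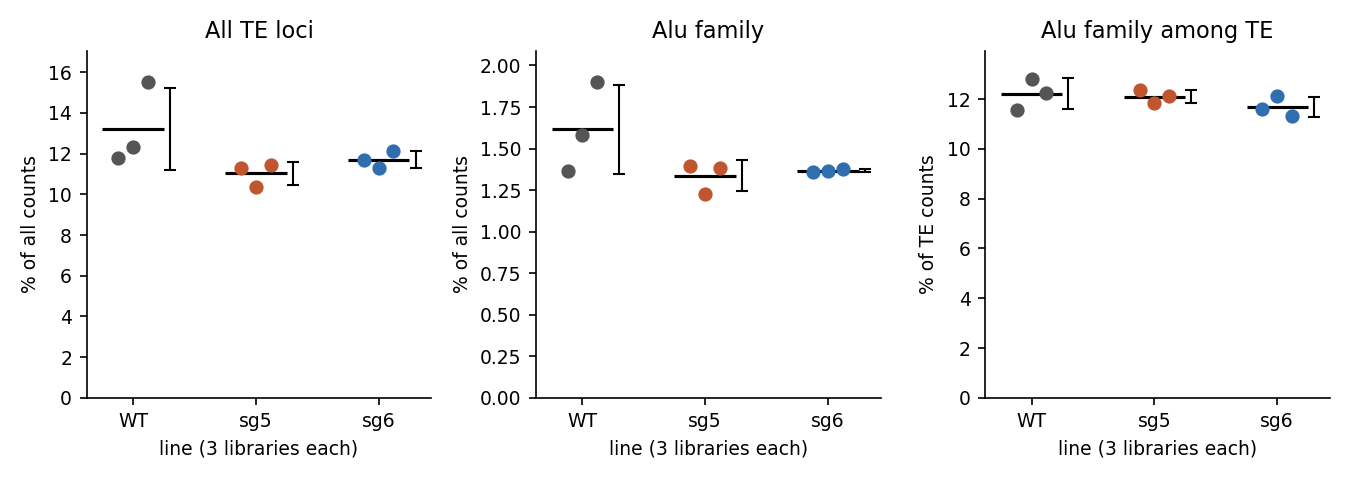
Share of counts on all TE loci (left) and on the Alu family (middle) in % of all counts, and of the Alu family in % of TE counts (right), with 1 point per library, a line at the mean of 3 libraries and a bar of 1 SD beside it. WT replicate 3 is the highest in the left and middle panels, at 15.5% and 1.90%, and the Alu share of TE counts stays between 11.3% and 12.8% in all 9 libraries.

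All TE loci together took 11.3%, 10.4% and 11.4% of the counts in sg5 and 11.7%, 11.3% and 12.1% in sg6. The sg5 libraries lay below all WT libraries (exact permutation p = 0.1, the smallest the design allows, adjusted p = 0.562) and the sg6 libraries overlapped them (p = 0.2). Within the TE counts the family took 11.6%, 12.8% and 12.2% in WT, 12.3%, 11.8% and 12.1% in sg5, and 11.6%, 12.1% and 11.3% in sg6. The overlap of all 3 lines on this scale leaves differences of −0.11 percentage points for sg5 (exact permutation p = 0.9) and −0.52 for sg6 (p = 0.3).

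B2 and B4 elements are the other abundant mouse SINE families and have the same kind of promoter. The log2 ratio of Alu counts to B2 counts was 0.55, 0.53 and 0.58 in WT, 0.61, 0.56 and 0.56 in sg5, and 0.63, 0.51 and 0.57 in sg6. The ratio to B4 counts was 0.83, 0.79 and 0.75 in WT, 0.79, 0.75 and 0.75 in sg5, and 0.78, 0.80 and 0.75 in sg6. All lines overlapped in both ratios, with differences from WT of 0.02 for B2 in each clone (exact permutation p = 0.4 and 0.8) and of −0.03 and −0.01 for B4 (p = 0.2 and 0.7). The small B4 differences turned to 0.00169 and 0.00914 when the 100 highest loci of each family were left out.

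Summed over all loci, the family was fitted in a table of all genes and TE family sums. The Alu sum was 13256, 15289 and 18499 CPM in WT, 13779, 12338 and 14296 in sg5, and 13478, 14342 and 14094 in sg6. The clones fell inside or near the lower part of the WT range, with log2 fold changes of −0.22 in sg5 (95% interval −0.53 to 0.09, adjusted p = 0.300) and −0.17 in sg6 (−0.48 to 0.15, adjusted p = 0.496), beside 18.4% and 12.5% of the 13364 features of that table called in either direction. Most of those features were genes, and of the 61 TE families 0 were called higher and 1 lower in each clone. The direct comparison of sg5 with sg6 gave −0.05 (adjusted p = 0.894, where 2% of features were called). With scaling factors from TE sums alone the log2 fold change in sg6 turned to 0.0066. Without WT replicate 3 the sums stood at −0.09 (adjusted p = 0.693) and −0.03 (adjusted p = 0.931). Sums of other repeat families also lay below WT in sg5 and sg6, with −0.24 and −0.18 for B2, −0.20 and −0.16 for B4, and −0.17 and −0.14 for ID. LINE-1 (L1) was at −0.29 and −0.23, ERVK at −0.27 and −0.20, and MIR at −0.09 and −0.14. None of these named families was called. The median over all TE families was −0.20 in sg5 and −0.18 in sg6, against 0.01 and 0.00 over genes.

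Apart from the fossil monomer FAM, the 16 subfamilies range from proto-B1 elements (PB1 and PB1D), the oldest of the rest, through B1F and B1_Mur to B1_Mus and B1_Mm, the most recent. B1_Mus1 was the most numerous, with 95081 loci and 15.3% of the family's counts, followed by B1_Mus2 with 70891 loci and 11.7% and PB1D10 with 65054 loci and 11.1%. The fossil monomer FAM was the smallest, with 117 loci and 0.0209% of the counts. The share of loci with a count ran from 29.8% in B1_Mm to 44.4% in PB1D9, and the counts per locus over the 9 libraries from 4.40 in B1_Mm to 8.63 in PB1D9. The lengths of the loci are not in the table, so these are values per locus and not per base.

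None of the 16 subfamily sums was called in either clone or between the clones by edgeR, and DESeq2 also called none. At an unadjusted p below 0.05 edgeR gave 1, B1_Mus1 in sg5, 0 in sg6 and 0 between clones. Background calls among the 14310 genes and TE subfamily sums of that table were 8.57% higher and 8.18% lower in sg5, 5.74% and 5.79% in sg6, and 0.615% and 1.32% in sg5 against sg6. Most of those features were genes. Of the 1007 TE subfamily sums alone, 5 were called higher and 26 lower in sg5, and 2 and 21 in sg6. Between the clones 0 and 4 were called. Few TE subfamily sums were thus called at all. All 16 fitted differences lay below 0 in both clones on the log2 scale, from −0.29 to −0.10 in sg5 and from −0.21 to −0.09 in sg6, and 15 of 16 lay below 0 in sg5 against sg6, FAM at 0.04 being the exception. The comparisons share the WT libraries, and with scaling factors taken from the TE sums alone 15 of the 16 turned positive in each clone, B1_Mus1 being the exception. The median over all 1007 TE subfamilies in the table was −0.24 in sg5 and −0.20 in sg6.

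**Figure D2:**
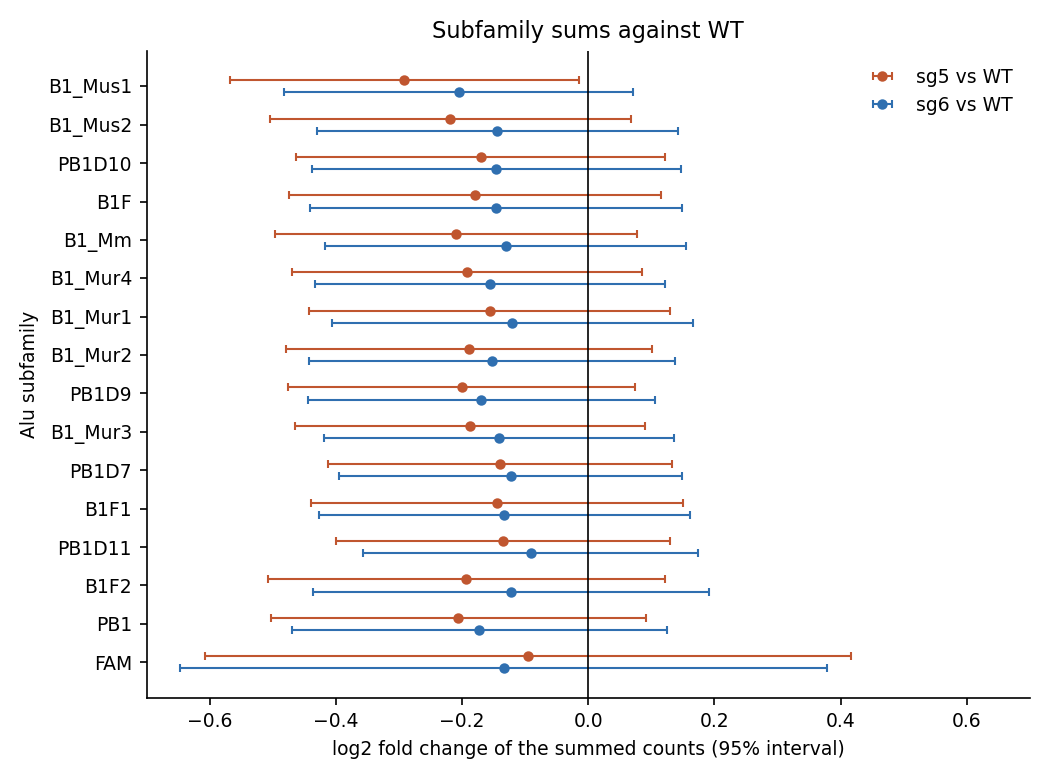
Log2 fold change of the summed counts of each of the 16 Alu subfamilies in sg5 and in sg6 against WT, with 95% intervals from edgeR, ordered by number of loci. All points lie to the left of 0 under this scaling, 15 of the 16 turn positive in each clone with factors from TE sums alone, and 1 interval, that of B1_Mus1 in sg5, does not reach 0.

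B1_Mus1 lay lowest. Its sum had a mean of 2443 CPM for WT, 1996 for sg5 and 2120 for sg6, and the sg5 values were all under the WT values. Its log2 fold change was −0.29 in sg5 (95% interval −0.57 to −0.01, unadjusted p = 0.041, adjusted p = 0.135) and −0.21 in sg6 (adjusted p = 0.343). A single locus, B1_Mus1_dup43679, held 4.98% to 6.58% of the B1_Mus1 counts in the WT libraries and 1.56% to 2.83% in the KO libraries. Without that locus, an alternative chosen after seeing the data, the sum stood at −0.24 (adjusted p = 0.219) and −0.16 (adjusted p = 0.484), and without WT replicate 3 at −0.18 (adjusted p = 0.349) and −0.10 (adjusted p = 0.730).

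The counts were spread thinly over many loci. The 10 highest loci of each library held 2.04%, 2.04% and 1.65% of the Alu counts in WT and 1.36% to 1.51% in the KO libraries, and the 1000 highest held 13.4% to 17.3% in all. After each library was thinned to the smallest total, 79089, 90184 and 100050 loci had a count in WT, 78363, 75317 and 82410 in sg5, and 78225, 82207 and 81499 in sg6. WT replicate 1 lay inside the range of the KO libraries, and replicates 2 and 3 lay above it. At 10 counts or more the numbers were 4370, 5241 and 7111 in WT, 4665, 3620 and 4336 in sg5, and 4306, 4256 and 4286 in sg6. WT replicate 3 again stood highest.

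Of the 574557 loci, 8384 (1.46%) had enough counts to be tested one by one, with a median of 103 counts over the 9 libraries, and they held 37.7% of the Alu counts. A locus could pass this filter through the line in which it was high, so the numbers below describe the tested loci and not the family. In sg5, 26 loci were higher and 26 lower than in WT, 0.31% of the tested loci each way. The same counts were 56 and 31 by DESeq2, 58 and 45 when replicate numbers entered as a block, 58 and 60 with no filter, and 7 and 9 with adjustment over TE loci alone. Without WT replicate 3 they were 15 and 9, and with any 1 library left out 9 to 39 and 8 to 39. Among all features 1.82% were called higher and 2.06% lower in that comparison, among TE loci 0.638% and 1.11%, and among genes 5.64% and 5.1%. In sg6, 10 loci were higher (0.119%) and 15 lower (0.179%), beside 1.18% and 1.72% of all features, 0.439% and 0.996% of TE loci, and 3.55% and 4.03% of genes. Under the same settings the sg6 counts were 25 and 27, 25 and 26, 44 and 49, and 5 and 7, and without WT replicate 3 they were 7 and 5. B1 loci were thus called at lower rates than TE loci as a whole, a difference that was described and not tested.

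**Figure D3:**
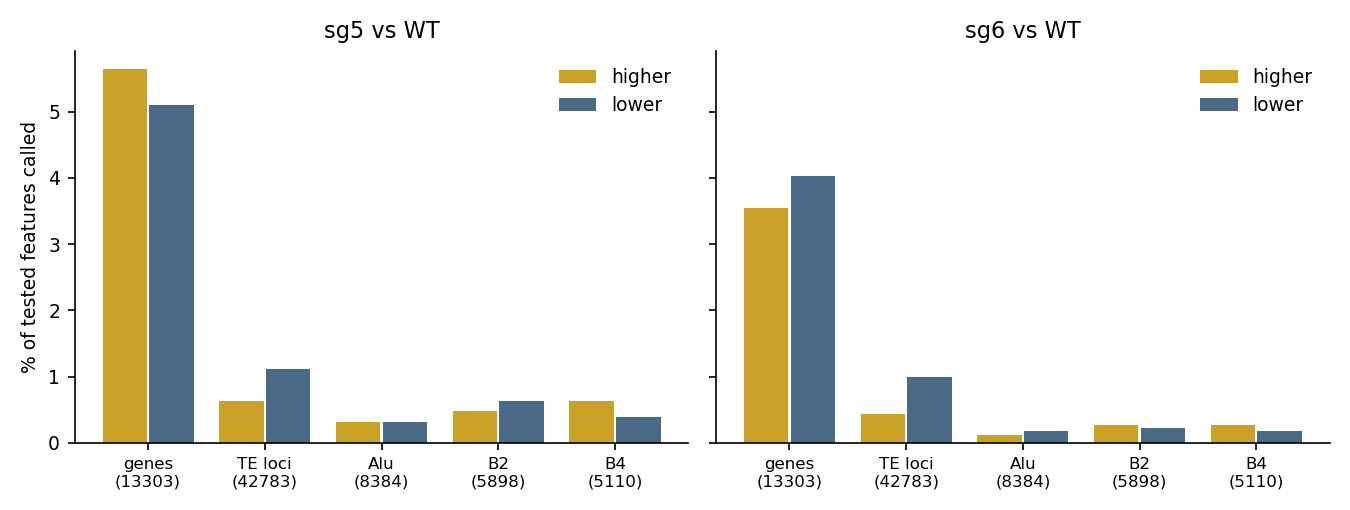
Percent of tested features called higher or lower at an adjusted p below 0.05 in sg5 (left) and sg6 (right) against WT, for genes, all TE loci and the loci of the Alu, B2 and B4 families, with the number tested under each name. The Alu bars, 0.31% each way in sg5 and 0.119% and 0.179% in sg6, are lower than those of genes and of all TE loci.

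B2 loci were called at 0.475% higher and 0.627% lower in sg5 and B4 loci at 0.626% and 0.391%. In sg6 the rates were 0.271% and 0.22% for B2 and 0.274% and 0.176% for B4. B2 and B4 thus also lay below TE loci as a whole, so the low rate was not particular to B1. The median log2 fold change of the tested Alu loci was −0.09 in sg5 and −0.08 in sg6, beside −0.12 and −0.08 over all TE loci and 0.08 and 0.04 over genes. These medians turn with the scaling and with 1 library: with factors from TE loci alone the Alu median was 0.02 in sg5 and 0.01 in sg6 while the gene median in sg5 moved to 0.18, and without WT replicate 3 the Alu medians were −0.01 and 0.01. The split of calls in sg5 moved likewise, from 26 higher and 26 lower to 44 and 18 with factors from TE loci alone and to 18 and 28 with factors from genes alone. With 1 library left out, calls ranged from 9 to 39 higher and 8 to 39 lower in sg5, fewest without WT replicate 2, and from 5 to 24 higher and 5 to 26 lower in sg6, fewest without sg6 replicate 3 and WT replicate 3. In sg6 the 10 and 15 became 16 and 17 with factors from TE loci and 9 and 15 with factors from genes.

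**Figure D4:**
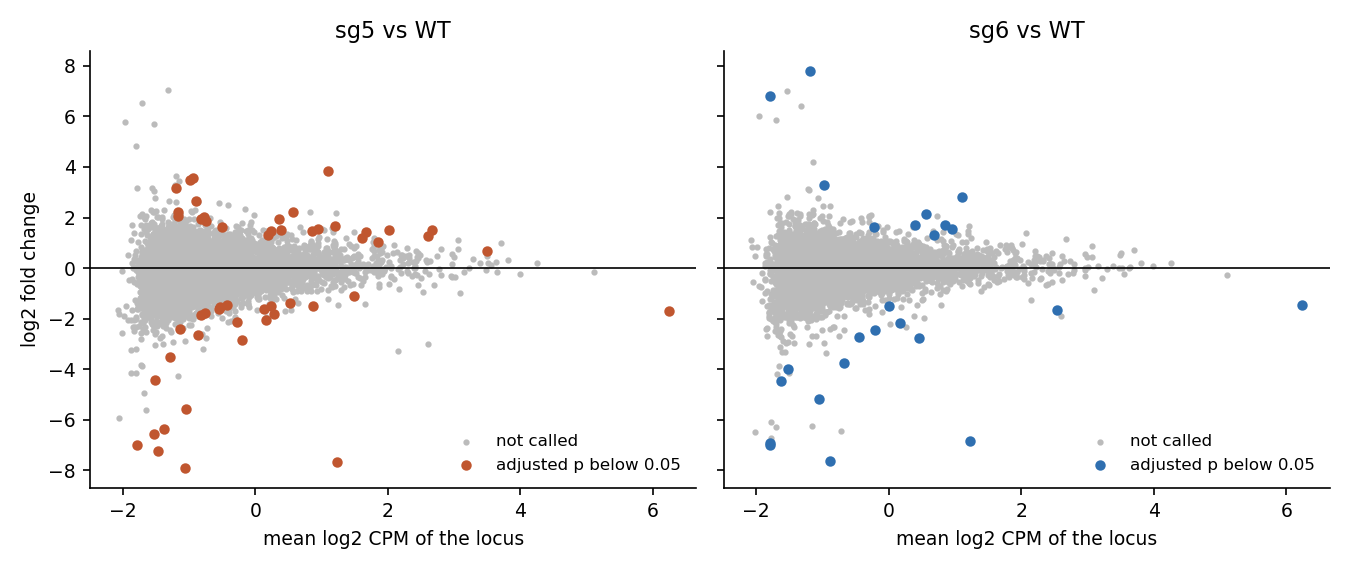
Log2 fold change against mean log2 CPM of each of the 8384 tested Alu loci, in sg5 (left) and sg6 (right) against WT, with called loci in colour. The called locus farthest to the right in both panels is B1_Mus1_dup43679, at −1.71 and −1.45.

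Every called locus had libraries that did not overlap between the lines compared, which the selection by adjusted p favours by itself. The share without overlap among all called features was not taken, so this is not shown to be particular to B1 loci. Between them the comparisons with WT called 66 loci, of which 11 were called in both clones, 5 higher and 6 lower, and none in opposite directions. Among all features 0.727% were called higher in both clones and 1.16% lower, and among TE loci 0.236% and 0.615%. Both comparisons use the same WT libraries, and without WT replicate 3 the loci called in both clones were 3 higher and 3 lower, from 3 to 10 each way with any 1 library left out. Of the 5 raised loci only PB1D7_dup22012 kept both calls without WT replicate 3, so the others called higher there were different loci. In that fit 7 of 15 loci called higher in sg5 and 2 of 7 in sg6 were also called with all libraries. Of those called lower, 9 of 9 and 5 of 5 were. The subfamilies of the 11 loci were B1_Mus1, PB1D7, B1_Mur3 and B1F with 2 each, and PB1D10, B1_Mus2 and B1_Mur2 with 1 each.

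The locus with the highest mean level of the family was among those that fell. B1_Mus1_dup43679 had 120, 157 and 130 CPM in WT, 32.1, 43.4 and 49.2 in sg5, and 39.2, 62.6 and 47.0 in sg6. All KO libraries lay below all WT libraries, and the mean fell from 136 ± 19.0 to 41.5 ± 8.68 and 49.6 ± 11.9 (SD, n = 3). The log2 fold change was −1.71 ± 0.206 in sg5 (SE, adjusted p = 0.000278) and −1.45 ± 0.204 in sg6 (adjusted p = 0.001), and the call held in both clones in all 20 alternative settings. This locus alone made up 0.771% to 1.04% of all Alu counts in the WT libraries and 0.230% to 0.439% in the KO libraries.

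A deeper loss was seen at B1_Mus2_dup42955, with 165, 138 and 297 counts in the WT libraries, 1, 1 and 0 in sg5, and 1, 2 and 1 in sg6. The level in sg5 was 244-fold lower, with an exact 95% counting interval of 67.2 to 2018 (adjusted p = 1.81e-06), and the fitted log2 fold change in sg6 was −6.85 (adjusted p = 1.98e-06). B1F_dup25066 had a like pattern, with 27, 32 and 42 counts in WT, none in sg5, and 0, 1 and 1 in sg6. Against a floor of 3 counts over the 3 libraries it was 27.4-fold lower in sg5 (adjusted p = 0.000427), and it was 42.9-fold lower in sg6 (counting interval 11.6 to 359, adjusted p = 0.00101). A fold against this floor includes no counting error of the other line. The lower end of the exact 95% counting interval, called the exact limit below, was 21.9-fold in sg5. Both loci kept their calls in all 19 settings that tested them.

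The other loci that fell in both clones had fewer counts. B1_Mur2_dup14281 had 12, 24 and 17 counts in WT and none in any KO library. Against the floor it was 14.4-fold lower in sg5 (exact limit 11.3, adjusted p = 0.0214) and 14.99-fold lower in sg6 (exact limit 11.8, adjusted p = 0.0236). B1_Mur3_dup4564 had 19, 12 and 33 counts in WT, 0, 1 and 1 in sg5, and 3, 0 and 0 in sg6, or 26.01-fold lower (6.91 to 219, adjusted p = 0.0299) and 18.1-fold lower (5.92 to 90.1, adjusted p = 0.0460). B1_Mus1_dup71211 had 30, 44 and 89 counts in WT, 3, 7 and 7 in sg5, and 1, 8 and 15 in sg6, on the log2 scale −2.84 (adjusted p = 0.0183) and −2.44 (adjusted p = 0.0379). In these loci every KO library lay below every WT library, and all 6 calls were lost without WT replicate 3.

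Of the 5 loci that rose in both clones, B1F_dup44567 had the highest log2 fold change in sg5 and PB1D10_dup9052 in sg6. B1F_dup44567 had 6, 14 and 4 counts in WT, 66, 105 and 111 in sg5, and 34, 86 and 33 in sg6. The KO libraries all lay above the WT libraries, with log2 fold changes of 3.85 in sg5 (adjusted p = 0.000792) and 2.81 in sg6 (adjusted p = 0.00941), the second of which lost its call in 1 of 19 settings, without WT replicate 3. PB1D7_dup22012 had 5, 13 and 21 counts in WT, 53, 35 and 55 in sg5, and 47, 44 and 50 in sg6. The changes on the log2 scale, 2.20 (adjusted p = 0.00237) and 2.14 (adjusted p = 0.00331), were nearly equal between the clones and both stayed called in all 19 settings.

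PB1D10_dup9052 rose from 0, 3 and 2 counts in WT to 29, 5 and 17 in sg5 and 18, 8 and 18 in sg6, with a fitted log2 fold change of 3.49 (adjusted p = 0.0207) in sg5 and 3.31 (adjusted p = 0.0343) in sg6. PB1D7_dup1492 rose from 11, 17 and 19 counts to 54, 24 and 31 and to 51, 42 and 38 (1.49, adjusted p = 0.0246, and 1.72, adjusted p = 0.0117). B1_Mur3_dup15819 rose from 22, 19 and 24 counts to 67, 31 and 53 and to 80, 48 and 55 (1.46, adjusted p = 0.0261, and 1.72, adjusted p = 0.0112). None of the KO libraries of these loci overlapped WT, and all 6 calls were lost without WT replicate 3.

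**Figure D5:**
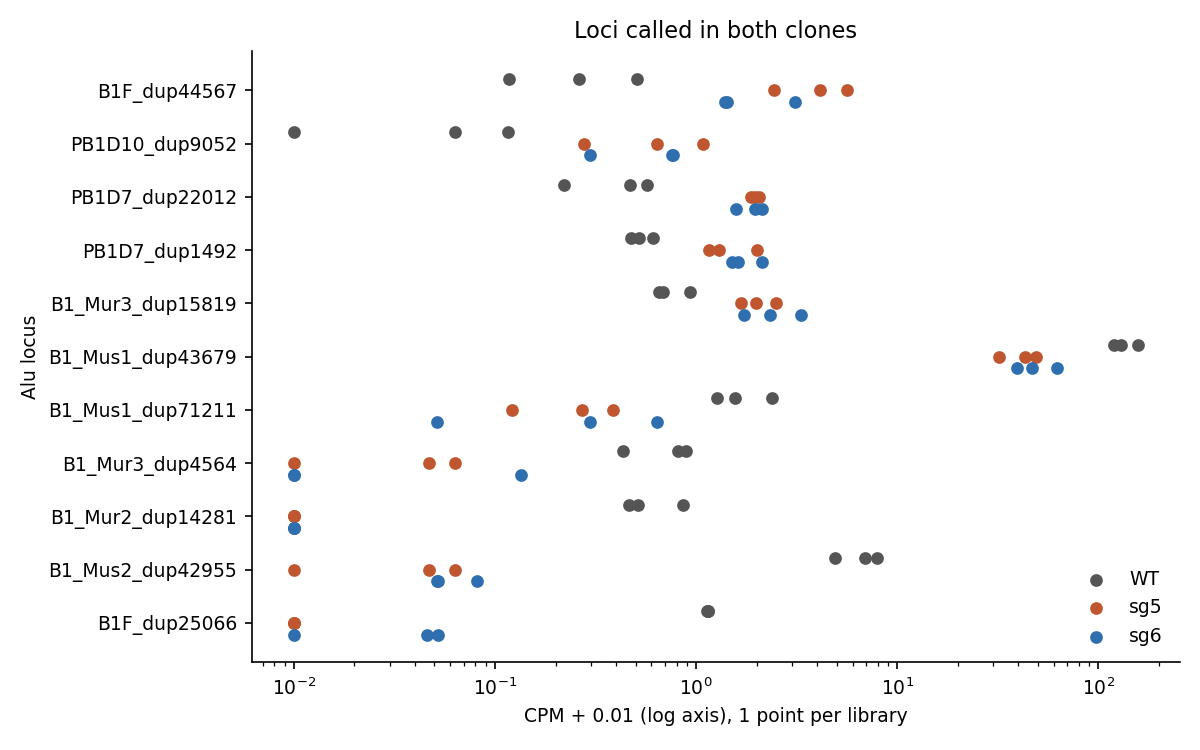
CPM plus 0.01 (log axis) of the 11 Alu loci called in both clones, with 1 point per library of WT, sg5 and sg6. The 6 KO points of each locus lie on 1 side of its 3 WT points, and points at the left edge are libraries with no count.

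Loci called in 1 clone are given beside their values in the other, and since WT is shared no likeness was tested. Selection by a call in 1 clone by itself favours the larger change in that clone. The share of all features called in 1 clone alone was not taken, so these numbers are not shown to be particular to B1 loci. The 21 loci called higher in sg5 alone had median log2 fold changes of 1.64 in sg5 and 1.05 in sg6, and the 20 called lower in sg5 alone had −1.83 and −0.80. The 5 called higher in sg6 alone had 1.63 in sg6 and 1.49 in sg5, and the 9 called lower in sg6 alone had −2.78 and −0.93. Named after their values were seen, the 5 were B1_Mus1_dup42122, PB1D10_dup30046, B1_Mus1_dup5600, B1_Mus1_dup72734 and B1_Mus2_dup41509. Of these, B1_Mus2_dup41509 had 28, 32 and 29 counts in WT, 24, 26 and 20 in sg5, and 65, 72 and 57 in sg6 (log2 fold change 1.32 in sg6, adjusted p = 0.0360, and −0.04 in sg5), and kept its call in 3 of the 9 fits with 1 library left out, while B1_Mus1_dup5600 and B1_Mus1_dup72734 kept theirs in 4 each.

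Some loci were silent in a whole line, and these too were picked after their values were seen. They passed the count filter only through lines in which they had counts, so their p-values are no separate support for a change. In sg5, B1_Mus1_dup67400 went from 4, 17 and 20 counts in WT to none (11.1-fold lower against the floor, exact limit 8.64, adjusted p = 0.0193) and had 7, 15 and 4 in sg6. PB1D10_dup23736 went from 11, 23 and 31 to none (17.6-fold against the floor, exact limit 13.9, adjusted p = 0.00296) with 2, 4 and 2 in sg6. PB1D11_dup421 went from 12, 13 and 8 to none (8.94-fold against the floor, exact limit 6.87, adjusted p = 0.0224) with 14, 5 and 21 in sg6. In these 3 loci the sg6 libraries held counts where sg5 had none, and with 1 of the 9 libraries left out in turn the sg5 calls held in 7, 9 and 6 fits.

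In sg6 the loci called lower than WT with no count were B1_Mur2_dup14281, B1_Mus1_dup71185 and PB1D10_dup44706, and PB1D9_dup9789, not called against WT, had none either. B1_Mus1_dup71185 had 13, 12 and 27 counts in WT and 0, 0 and 2 in sg5 (14.7-fold lower in sg6 against the floor, exact limit 11.5, adjusted p = 0.0214). PB1D10_dup44706 had 23, 18 and 45 in WT and 0, 17 and 12 in sg5 (24.3-fold lower in sg6 against the floor, exact limit 19.4, adjusted p = 0.0205). In the other direction, with no count in any WT library, B1_Mus1_dup42122 had 20, 20 and 39 counts in sg6 (31.0-fold higher against the floor, exact limit 24.7, adjusted p = 0.00178) and PB1D10_dup30046 had 11, 16 and 13 (15.7-fold, exact limit 12.2, adjusted p = 0.0280). Their sg5 counts were 3, 0 and 1, and 0, 4 and 5. Both thus passed the count filter through sg6 alone, the line in which they were high, and their p-values describe loci selected that way. Of the 9 fits with 1 library left out, B1_Mus1_dup42122 kept its sg6 call in 9, PB1D10_dup44706 in 6, and B1_Mus1_dup71185 and PB1D10_dup30046 in 3 each.

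Tested directly against each other, the clones differed at 4 loci, 3 higher in sg5 and 1 lower, beside 0.216% higher and 0.275% lower among all features and 0.103% and 0.0514% among TE loci. B1_Mus1_dup60308 had 45, 32 and 44 counts in WT, 41, 25 and 39 in sg5, and 9, 4 and 10 in sg6, so sg5 overlapped WT and sg6 lay below both. The log2 difference of sg5 from sg6 was 2.21 (adjusted p = 0.0289), and sg6 was at −2.16 against WT (adjusted p = 0.00960). B1_Mus2_dup11172 had 2, 5 and 9 counts in WT, 17, 12 and 16 in sg5, and 0, 1 and 0 in sg6, a 47.0-fold difference between the clones (counting interval 8.01 to 1896, adjusted p = 0.0286). PB1D9_dup9789 had 0, 18 and 20 counts in WT, 26, 36 and 23 in sg5 and none in sg6, a sg5 level 29.6-fold the floor in sg6 (exact limit 23.5, adjusted p = 0.0343). B1_Mus1_dup42122 was the locus lower in sg5, with a log2 difference of −4.18 (adjusted p = 0.0359). Each of these 4 calls was lost in 6 to 8 of 19 settings, and without WT replicate 3 none was called higher in sg5.

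Of the 10 loci with the highest mean CPM, 1 was called, B1_Mus1_dup43679, lower in both clones. Beside it, 0.31% and 0.179% of tested Alu loci and 2.06% and 1.72% of all features were called lower in sg5 and sg6. The other 9 were not called in either clone, with log2 fold changes from −0.28 to 0.99. B1_Mus1_dup78164 had a mean of 37.8 CPM for WT, 34.1 for sg5 and 31.2 for sg6, and B1_Mus2_dup45502 averaged 17.2, 20.1 and 19.7. PB1D11_dup8924 had the widest difference of the 9, at 8.08, 8.25 and 8.88 CPM in WT, 25.2, 12.6 and 12.1 in sg5, and 20.1, 7.23 and 14.1 in sg6. The sg5 libraries lay above WT, the sg6 libraries overlapped it, and neither change passed the test (0.99, adjusted p = 0.141, and 0.71, adjusted p = 0.412). The other 6 were PB1D9_dup19819, B1_Mur3_dup5765, B1F_dup20371, B1_Mus1_dup15161, B1_Mus2_dup49202 and B1_Mur1_dup20318.

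By subfamily, PB1D11 had the highest share of tested loci called in sg5 over both directions, with 1.09% higher and 0.727% lower (3 and 2 of 275). Beside it, 0.638% and 1.11% of all TE loci and 1.82% and 2.06% of all features were called. In sg6 PB1D11 had 0 called either way. The order rests on few loci and was not tested. B1_Mur4 had the highest share called lower in sg5, with 0.358% higher and 0.896% lower (2 and 5 of 558), and 0 either way in sg6. PB1D7 had 0.688% and 0.459% (3 and 2 of 436), PB1D10 0.535% and 0.428% (5 and 4 of 934), and B1_Mus1, the largest, 0.169% and 0.253% (2 and 3 of 1184). In sg6 B1_Mus1 had 0.253% higher and 0.507% lower (3 and 6 loci), beside 0.439% and 0.996% of all TE loci and 1.18% and 1.72% of all features. B1F1 with 298 tested loci, PB1 with 171 and FAM with 1 had none by edgeR, at unadjusted p below 0.05 in 31, 15 and 0 loci in sg5 and 16, 11 and 0 in sg6, and DESeq2 called 3, 1 and 0 in sg5 and none in sg6. B1_Mm, the subfamily with the fewest counts per locus, had 1 of 479, in sg5.

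Genes that make, bind or silence such RNA were read from the same fit, from a list chosen with earlier results of these data known. Of the 10 genes of 7SL RNA and its particle, 7 were tested, 2 were higher in sg5 and none in sg6 by edgeR (3 in sg6 at an unadjusted p below 0.05, 1 by DESeq2), where 5.64% and 3.55% of all genes were called higher, with a median log2 fold change of 0.44 in each clone. Srp14, whose product with SRP9 binds the Alu part of 7SL RNA, had 151, 119 and 121 CPM in WT, 216, 216 and 218 in sg5, and 195, 170 and 165 in sg6. All KO libraries lay above WT, and the change passed the test in sg5 (0.73, adjusted p = 0.00825) and not in sg6 (0.44, adjusted p = 0.144). Srp19, another protein of the particle, had 40.6, 34.9 and 31.0 CPM in WT, 58.2, 54.2 and 53.7 in sg5, and 50.7, 55.9 and 48.9 in sg6 (0.64, adjusted p = 0.0260, and 0.55, adjusted p = 0.0713), and its sg5 call was lost in 9 of 19 settings. Srp9 was at 0.15 and 0.00 with no call.

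None of the 13 genes of RNA polymerase III and none of the 13 tested of its 14 listed factors was called in either clone by edgeR or by DESeq2, with medians of 0.05 and 0.17 for the subunits and −0.05 and 0.07 for the factors. At an unadjusted p below 0.05 edgeR gave 3 and 1 of the subunits and 3 and 2 of the factors in sg5 and sg6. Of the 12 genes whose products bind double-stranded or Alu RNA, none was called in sg5 by edgeR (3 at an unadjusted p below 0.05, 1 lower by DESeq2) and 2 were lower in sg6, where 4.03% of all genes were called lower. Ddx58, which encodes the RNA sensor RIG-I, had 59.9, 41.5 and 63.4 CPM in WT, 37.2, 26.2 and 24.8 in sg5, and 32.2, 17.8 and 25.5 in sg6 (−0.90, adjusted p = 0.0518, and −1.13, adjusted p = 0.0191). Ifih1, which encodes the sensor MDA5, had 23, 12 and 32 counts in WT, 20, 15 and 6 in sg5, and 3, 1 and 1 in sg6 (−3.41 in sg6, adjusted p = 0.0143). Each of these sg6 calls was lost in 4 of the settings tried, 1 of them the fit without WT replicate 3. Of the 8 silencing genes, only Atrx was called, lower in both clones, where 5.1% and 4.03% of all genes were called lower. The medians of the 8 were −0.52 and −0.25, with 3 and 1 at an unadjusted p below 0.05 by edgeR. Dnmt1 was at −0.67 and −0.45, Suv39h2 at −0.64 and −0.40, Hells at −0.59 and −0.10, and Suv39h1 at −0.45 and −0.39. Daxx was at 0.01 and −0.09, Setdb1 at −0.05 and −0.09, and Trim28 at 0.07 and −0.08.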

How the data were processed

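Ribosomal RNA-depleted, paired-end RNA-seq libraries of 9 samples were used. The authors aligned the reads to mm10 with STAR (version 2.27.10a in the submitters' processing notes, which also list Salmon 0.8.2 and DESeq2) and counted them per gene and per TE locus with TElocal, which shares reads that align to several places among the loci. The unit of the deposited values is raw counts, which the authors did not normalize. The strand setting of the counting is not given in the sources used here. Reads of near-identical B1 copies, and of a gene and an element inside it or on its other strand, can therefore be exchanged, and the value of a single young copy is uncertain to that extent. Samples were grouped by their labels. Libraries held 20135336 to 33187136 counts. No pair of libraries was identical, and libraries of 1 line differed by 2.28 to 3.49 chi-square units per Alu locus, above counting noise.

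Features were filtered with filterByExpr (minimum count 10, minimum total 15, large n 10, proportion 0.7), scaled by TMM and tested with edgeR 4.0.16 (glmQLFit, glmQLFTest) in R 4.3.3 over all 9 libraries without covariates. Benjamini-Hochberg adjustment ran over all 56086 features tested, and the threshold was 0.05. Family and subfamily sums over all loci were fitted the same way in tables of genes and sums. Shares and ratios were compared by an exact two-sided permutation test in SciPy 1.17.1. Intervals are at the 95% level, and the floor for a group at 0 was 3 counts. A sequence comparison of the family is not reported here. Loci were named if called in the same direction in both clones, if among the 10 with the highest mean CPM, or if called in sg5 against sg6. Members and lists were chosen with earlier results of these data known. The alternatives were DESeq2 1.42.0, other scaling factors, other filters, other adjustment, a fold change threshold, thinned counts, other sums, only the groups compared, a replicate block, and each library left out. On simulated data with 48879 features and 40 loci changed per fold size, the test found 2, 20 and 35 of the loci raised by 2, 4 and 8 in sg5 and 1, 16 and 34 in sg6, and of those lowered by 4 and 8 it found 2 and 3 in sg5 and 2 and 5 in sg6, beside 9 and 3 false calls.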

Additional observations from a re-analysis of the deposited data

Results flagged for a closer look

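The direct test of sg5 against sg6 set apart 4 B1 loci and 1 gene of the lists, whose change against WT differed between the clones. On the log2 scale, sg5 minus sg6, the fitted differences were −4.18 at B1_Mus1_dup42122, 2.21 at B1_Mus1_dup60308, 5.14 at B1_Mus2_dup11172 and 8.03 at PB1D9_dup9789. The last has no count in sg6, so its fitted value depends on the prior count, and against the floor of 3 counts the difference was 29.6-fold (exact limit 23.5). Thy1 differed by −8.25, being high in sg6 alone. No group of 4 or more libraries existed in which a single outlying library could be tested.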

How the results depend on the processing

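The number of Alu loci called depended on the settings, while no called value of a named locus changed its direction in any setting tried. Against 26, 10, 3 and 5 loci higher in sg5, in sg6, in sg5 against sg6 and in both clones, and 26, 15, 1 and 6 lower, DESeq2 called 56, 25, 7 and 14 higher and 31, 27, 5 and 8 lower. Testing every row with a count gave 58, 44, 19 and 14 higher and 60, 49, 13 and 17 lower, and testing only loci with at least 10 counts in every library gave 18, 5, 0 and 3 higher and 16, 3, 1 and 2 lower, a filter that by construction removes loci silent in 1 line. With every row tested, 13 of the 58 higher and 15 of the 60 lower in sg5 were among the 26 and 26 above. With adjustment over TE loci alone 7, 5, 0 and 2 were higher and 9, 7, 0 and 3 lower. Factors from TE loci alone gave 44, 16 and 5 higher in sg5, sg6 and sg5 against sg6, and these factors, factors from genes alone and median-of-ratios factors each gave 2 lower in sg5 against sg6. Fits of only the groups compared gave 18 higher in sg6, and 1 higher and 0 lower in sg5 against sg6. Apart from the filters and the choice of samples, the cause of these differences was not tested.

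Deviations from the line means correlated weakly but always above 0 within a replicate number of the labels, at 0.0508 to 0.223 (mean 0.0995). Across numbers they ran from −0.192 to 0.12 (mean −0.0495). The deviations of a line sum to 0, so the mean across numbers is nearly fixed by the mean within numbers and is no separate observation. Whether the numbers pair the libraries was not tested. With the replicate block, 58, 25, 4 and 13 loci were higher and 45, 26, 2 and 9 lower, and no subfamily sum was called.

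With 1 library left out, calls ranged from 9 to 39 higher and 8 to 39 lower in sg5, from 5 to 24 and 5 to 26 in sg6, from 0 to 4 and 0 to 4 in sg5 against sg6, and from 3 to 10 and 3 to 10 in both clones. Calls higher in sg5 fell to 15, 9, 15 and 16 without replicates 1, 2 or 3 of WT or replicate 3 of sg5, and calls lower in sg5 to 13, 8, 9, 16 and 15 without replicates 1, 2 or 3 of WT, replicate 2 of sg5 or replicate 3 of sg6. Calls higher in sg6 became 24, 17, 17 and 5 without replicates 1 or 2 of sg5 or replicates 2 or 3 of sg6, and calls lower in sg6 became 8, 5, 26 and 6 without replicates 2 or 3 of WT, replicate 1 of sg5 or replicate 3 of sg6. Higher in both clones were 3, 3 and 10 without replicate 3 of WT or replicates 1 or 2 of sg6, and lower in both were 3, 3, 10 and 3 without replicates 2 or 3 of WT, replicate 1 of sg5 or replicate 2 of sg6. Higher in sg5 against sg6 were 0, 1 and 1 without replicate 3 of WT, replicate 2 of sg5 or replicate 3 of sg6, and lower were 4, 4 and 0 without replicates 1 or 3 of sg5 or replicate 3 of sg6.

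No sum was called under any setting, and the small differences below changed sign without passing a test. With factors from TE sums alone the Alu sum in sg6 was 0.0066 (log2), and the subfamilies in sg5 and sg6 were 0.045 and 0.044 for B1F, 0.081 and 0.056 for B1F1, 0.031 and 0.068 for B1F2, 0.010 and 0.056 for B1_Mm, 0.065 and 0.065 for B1_Mur1, 0.034 and 0.036 for B1_Mur2, 0.031 and 0.043 for B1_Mur3, 0.027 and 0.029 for B1_Mur4, 0.00084 and 0.042 for B1_Mus2, 0.11 and 0.040 for FAM, 0.019 and 0.018 for PB1, 0.054 and 0.044 for PB1D10, 0.087 and 0.093 for PB1D11, 0.079 and 0.061 for PB1D7, and 0.020 and 0.015 for PB1D9. Summing only tested loci gave 0.14 for FAM in sg5 and 0.011 and 0.055 for PB1D11. Without the 100 highest loci of each family the B4 ratio differed from WT by 0.00169 and 0.00914, and as a share of TE counts sg5 exceeded sg6 by 0.406 percentage points. B1_Mur1_dup20318 in sg6 was at 0.029 with DESeq2, 0.027 with median-of-ratios factors, 0.052 with factors from TE loci, 0.013 with no filter, 0.014 with only 2 groups and 0.021 with thinned counts. B1_Mus1_dup15161 in sg6 was at −0.017 with factors from genes, −0.0088 with at least 10 counts and −0.073 with thinned counts, and B1_Mus1_dup60308 in sg5 at −0.0093 with factors from genes.

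Leaving out 1 library at a time gave −0.10 to 0.0064 for the Alu sum in sg5 against sg6, −0.022 to 0.036 and −0.013 to 0.044 for the B2 ratio in sg5 against sg6 and in sg6, and −0.033 to 0.0046 for the B4 ratio in sg6. The share in sg5 against sg6 ran from −0.061 to 0.023 percentage points. In sg6 the loci ran from −0.017 to 0.19 for B1F_dup20371, −0.19 to 0.17 for B1_Mur1_dup20318, −0.072 to 0.19 for B1_Mus1_dup15161 and −0.021 to 0.30 for PB1D9_dup19819, and the sums from −0.23 to 0.0096 for B1F1, −0.23 to 0.026 for B1F2, −0.21 to 0.0092 for B1_Mur1, −0.30 to 0.038 for FAM and −0.19 to 0.016 for PB1D11. In sg5 the ranges were −0.083 to 0.37 for B1_Mus1_dup60308, −0.62 to 0.062 for Ifih1 and −0.16 to 0.0090 for FAM.

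Depth sets a limit on the loci: 8384 of 574557 could be tested, and on simulated data 3 and 5 of 40 loci lowered by 8 were found in sg5 and sg6, against 35 and 34 of 40 raised by 8. A small number of loci called lower does therefore not show that few were lower.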

Other observations

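Tested loci of 1 subfamily whose running numbers in the table were close had like changes. Among 1284 pairs with numbers 1 apart, Pearson's r of the log2 fold changes was 0.37 in sg5 and 0.29 in sg6, among 645 pairs 2 apart 0.32 and 0.31, among 949 pairs 3 to 5 apart 0.21 and 0.25, among 2296 pairs 6 to 20 apart 0.15 and 0.12, and among 1554 pairs 200 to 210 apart 0.06 and 0.03. The points are pairs of loci that share all 9 libraries and are not independent, so no test is given. The basis of the numbering is not given in the sources used here. PB1D7_dup22011 had 18, 26 and 41 counts in WT, 70, 59 and 66 in sg5, and 52, 37 and 56 in sg6 (log2 fold changes 1.54 and 1.05), beside 2.20 and 2.14 at PB1D7_dup22012. B1_Mur4_dup25870 and B1_Mur4_dup25871 were at −1.82 and −1.50 in sg5. These examples were picked after their values were seen.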
